A study of Rattus norvegicus with 18 samples.

Results

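Primary rat cortical neurons were depleted of CHD5 with a lentiviral short hairpin RNA (shRNA), and the RNA harvested at day 12 of culture is described here. The 6 arrays of day 12, out of 18 arrays in the series, were chosen by their labels: 3 samples (a, b and c) had received the CHD5 shRNA and 3 samples (a, b and c) a scrambled control shRNA. Neurons came from rat embryos, and both groups were infected on day 1 for 6 hours with a pLKO.1 lentivirus packaged in HEK-293T cells, a human embryonic kidney line used to make virus. The medium was then replaced with Neural Basal Medium until harvest. Both groups thus shared the infection schedule and age, and by design differed in the shRNA insert. The virus dose and the infected share of cells were not reported for either group. The same groups of 3 and 3 were made at days 5 and 9 and are used below only to follow a gene over time.

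RNA was hybridised to Illumina RatRef-12 beadchips, on which each gene is read by 1 or a few probes of bead-bound oligonucleotides. Of 22523 probes, 9415 had a detection p-value (the probability that a signal this high comes from negative control beads) of at most 0.02 on at least 1 of the 6 arrays, and these were kept. They stand for 9181 gene symbols. Values are normalised signals, in which the log2 signals of every array were brought to the same mean and spread, and differences are given as log2 of CHD5 shRNA over control with the standard error (SE) of the limma fit. A probe was called lower or higher where the Benjamini-Hochberg adjusted p was under 0.05.

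CHD5 is an ATP-dependent chromatin remodelling enzyme of the CHD family. It is related to CHD3 and CHD4, the Mi-2 ATPases of the NuRD complex, which joins nucleosome remodelling to histone deacetylation, and in the brain it is found mainly in neurons. Cultures of embryonic cortex hold postmitotic neurons of excitatory and inhibitory classes and also progenitors from which astrocytes arise, and the astrocyte genes of such cultures are known to increase over the weeks in vitro.

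The study lists 7 inserts made for CHD5, each a hairpin in which a 21-base sense strand, identical to the intended target, is joined by the loop CTCGAG to its reverse complement. They are shown because the insert is the agent meant to separate the groups. Which of them these arrays received is given as lentivirus 1, and that number is not matched to an insert in the sources used here. The sense strands, 5′ to 3′, are:
MP 1685: aagaagtactacaagttcatc
MP 1686: aagaagaaagaggggagcaat
MP 1687: aacatgaacgagtacctgagc
MP 1688: gggctacaagtatgagcggat
MP 1689: tagggtcttgaatagctacaa
MP 1690: taggaagaaggtgcaggagtt
MP 1691: gagcgagaaacggaagaacaa
Each strand has a length of 21 bases, and the share of G and C runs from 33.3% in insert 1685 to 52.4% in insert 1688. On these arrays a single CHD5 shRNA was compared with a single control. Effects of CHD5 loss and of that 1 sequence on other transcripts therefore cannot be told apart here at day 12. For selected genes, the study repeated the measurement by quantitative PCR in other samples. A gene that failed to replicate with a different shRNA was treated there as a possible off-target effect. The level of Chd5 itself was not analysed here, so the labels were not checked against the targeted gene.

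The labelled cell type was borne out by its markers and was not the only one detected. Of 22 genes used by all neurons, 18 were detected, among them Rtn1, Gap43 and Stmn2, each on all 6 arrays. Of 50 astrocyte genes listed, 40 were detected, 3 were not and 7 were not analysed here. None of the 17 microglia genes with a probe, such as Aif1, Cx3cr1 and C1qa, was detected on any of the 6 arrays. Of the endothelial and pericyte genes 10 were not detected, Cdh5, Tek and Vwf among them, and of the fibroblast genes 11, including Col1a1, Col3a1 and Postn. RNA was taken from whole cultures, in which fewer cells of a type and less RNA per cell cannot be told apart.

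The 6 arrays were alike in depth, with mean signals of 463 to 548 and 8551 to 8734 probes detected. Between arrays of 1 group the SD of the log2 difference over probes was 0.128 to 0.179, against 0.130 and 0.132 between repeat runs of the same RNA (sample a of either group) and 0.254 to 0.296 between a CHD5 shRNA and a control array. The spread within a group thus lay close to that of repeat runs. Nothing in the labels says that a, b and c were separate platings, and the p-values then measure only the spread between these samples, which may be technical.

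At day 12 the depletion was accompanied by many small changes and few large ones. Of the 9415 probes 2590 were called (27.5%), 1305 lower (13.9%) and 1285 higher (13.6%). The median size of a called difference was 0.33. A fold of at least 1.5 was reached by 313 of them, 219 lower and 94 higher, and a fold of at least 2 by 38, 29 lower and 9 higher, so the larger changes were mostly falls. The groups did not overlap in 2509 of the 2590, and over all probes in 3947 (41.9%). When the spread was estimated over all 18 arrays, the day 12 contrast called 710 probes, 414 lower and 296 higher. One day 9 control array (b) stands apart from the other arrays, with a mean signal of 135, and without it the fit of the other 17 arrays called 1480 probes, 792 lower and 688 higher. Each count per gene list below is therefore followed by its counts from the fits of 18 and of 17 arrays, which were added after the data were seen. The 30 genes with the largest changes were called in both fits.

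**Figure D1:**
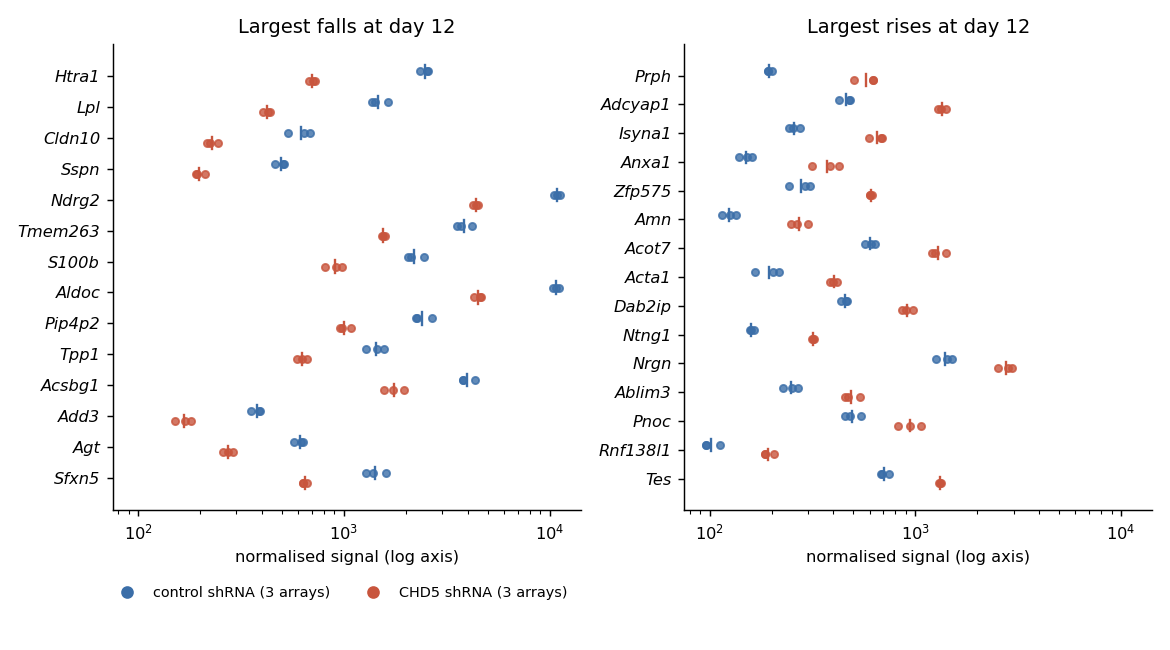
Normalised signal (log axis) of genes with the largest falls and rises at day 12; points are the 3 control and the 3 CHD5 shRNA arrays and short bars their means. The groups do not overlap in any gene shown, and Htra1 goes from 2354 to 2566 in control down to 675 to 726.

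The largest falls were in genes of astrocytes. Htra1, a secreted serine protease, had signals of 2566, 2523 and 2354 in the control samples and 675, 712 and 726 in the depleted ones. The depleted samples thus lay 3.52-fold lower, at -1.82 ± 0.07 (SE, n = 3 and 3, adjusted p = 1.72e-10). Lpl, lipoprotein lipase, which frees fatty acids from triglycerides, gave 1375, 1633 and 1424 in control against 427, 439 and 404 (-1.80 ± 0.08, adjusted p = 4.80e-10). Lpl and Sspn, which encodes the membrane protein sarcospan, were the only 2 of the 5 largest falls outside the astrocyte list. Cldn10, a claudin, fell from 533 to 686 in control to 217 to 245 (-1.43 ± 0.09). Ndrg2, an astrocyte protein of the NDRG family, fell from 10531 to 11191 in control to 4235 to 4501 (-1.31 ± 0.07, adjusted p = 4.43e-09).

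Of the 15 largest falls 8 were members of the astrocyte list, Htra1, Cldn10, Ndrg2, S100b, Aldoc, Acsbg1 and Add3 among them. S100b, a calcium-binding protein used to identify astrocytes, read 2462, 2053 and 2116 in control and 813, 919 and 981 after CHD5 shRNA, 2.44-fold lower with no overlap (adjusted p = 5.22e-08). Aldoc, the brain form of the glycolytic enzyme aldolase, read 11104, 10391 and 10728 against 4587, 4622 and 4295 (-1.25 ± 0.07). Acsbg1, an acyl-CoA synthetase, fell 2.26-fold. The other falls of this size were in Tmem263 (-1.30), Pip4p2 (-1.25), the lysosomal peptidase Tpp1 (-1.19), angiotensinogen (Agt, -1.16) and the mitochondrial carrier Sfxn5 (-1.14).

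Over the whole astrocyte list, 33 of the 40 detected genes were called lower (82.5%, against 14.0% of all 9181 symbols) and 1 was called higher; with all 18 arrays in the fit the counts were 27 and 0, and with 17 arrays 30 and 0. The median difference of the list was -0.64, against 0.01 over all symbols, and the groups did not overlap in 34 of the 40 (42.1% over all symbols). The summed signal of the 40 genes was 183220 to 203370 in the control samples and 129363 to 139555 in the depleted ones. Among transporters and channels, Slc1a3 (GLAST), the glutamate transporter, fell by 0.52, Slc1a2 (GLT-1) by 0.54, the water channel Aqp4 by 0.83 and Gja1, the gap junction protein connexin 43, by 0.84. Apoe, the main lipid carrier of the brain, read 10237, 11203 and 9210 in control and 5042, 5214 and 5209 after depletion (-0.98 ± 0.08, adjusted p = 2.77e-07). The intermediate filament Gfap changed less, from 870, 832 and 987 to 790, 590 and 620 (-0.44 ± 0.10, adjusted p = 0.00381), and was at -0.44 without a call in the fits of 18 and 17 arrays (adjusted p = 0.288 and 0.175).

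Not all genes of the list fell. Vim, a filament of immature glia and progenitors, read 1430, 1497 and 1495 in control and 1791, 1249 and 1425 after depletion, with a difference of 0.00 and a 95% interval of -0.22 to 0.21. Fabp7, a fatty acid binding protein of radial glia, differed by 0.09 (-0.11 to 0.29), but its deposited signals were 95.9 to 100% of the brightest signal on each array, so its values may be no more than bounds. Id3 (0.04), Cbs (-0.09), Slc7a10 (-0.16) and Lcat (-0.21) were not called either. Hopx, which encodes an unusual homeodomain protein of radial glia, was called higher (0.26 ± 0.08, adjusted p = 0.0225).

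**Figure D2:**
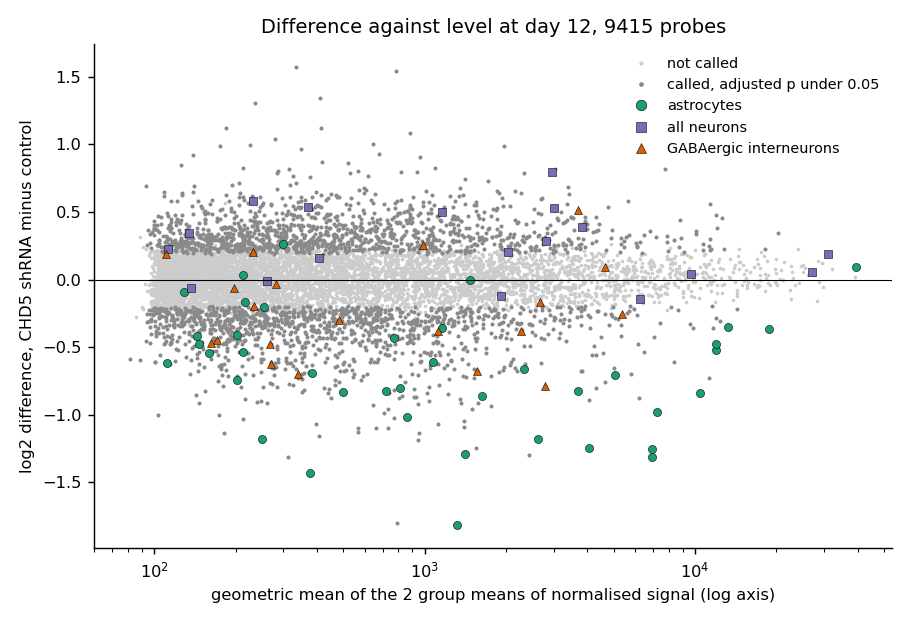
Log2 difference (CHD5 shRNA minus control) against mean normalised signal (log axis) for all 9415 probes, with the kept genes of the astrocyte, neuron and interneuron lists marked. Astrocyte genes lie below 0 at dim and bright signals alike, and 9 of the 18 neuron genes are called above 0.

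Genes of other glia and of factors that specify glia changed in part. For comparison, 14.0% of all symbols were called lower and 13.6% higher. Of the 14 detected oligodendrocyte lineage genes, 7 (50%) were called lower and 0 higher, with a median of -0.22 (3 lower with all 18 arrays, 5 with 17). The tetraspanin Tspan2 read 829, 740.2 and 691 in control and 463, 453 and 434 after depletion (-0.74 ± 0.08), and the myelin enzyme Cnp (-0.72) fell as well, whereas the lineage factor Olig2 (-0.02) and Mbp (-0.02) were not called. Of 22 gliogenic and Notch pathway genes 5 (22.7%) were called lower and 1 (4.55%) higher, with a median of 0.01 (1 and 1 with all 18 arrays, 3 and 1 with 17). Nfia, a transcription factor that starts astrocyte formation, fell 2.13-fold, from 2166, 2059 and 1900 to 1041, 891 and 941 (-1.09 ± 0.08, adjusted p = 9.44e-08). Its relatives differed less, with Nfib at -0.37 and Nfix at 0.08, and the Notch target Hes5 was at 0.00. Id1, an inhibitor of basic helix-loop-helix factors, rose from 384, 407 and 422 to 663, 686 and 749 (0.79 ± 0.07). Of the 5 endothelial and pericyte genes that were detected, 1 (20%) was called lower (1 with 18 and with 17 arrays). It was the thyroid hormone transporter Slco1c1 (-0.84), which astrocytes make too. Of the 8 fibroblast genes detected, 3 (37.5%) were called lower and 1 (12.5%) higher (3 and 0 with 18 and with 17 arrays). Decorin (Dcn), not detected after depletion, was at least 1.52-fold lower and fibronectin (Fn1) was at 0.22.

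Because Nfia fell with the astrocyte genes, promoters were searched for the TTGGCA core bound by NFI factors, on both strands, in the 250 bases before the first transcription start listed per gene (RefSeq, GRCr8). The letters occurred in 11.7% of all 27457 promoters and in 9.33% of the 6819 promoters of genes kept at day 12. They occurred in 23 of 152 promoters (15.1%) of genes called lower with a fold of at least 1.5, and in 4 of 66 (6.06%) of those called higher. Among the 15 largest falls 11 had a promoter in the table and 2 held the letters (18.2%), and among the 15 largest rises 14 had one and 2 held them (14.3%). The search was chosen after the values were seen, and it describes letters, not binding. The promoters of the 2 falls are printed with the match in capitals, S100b at chr20:12381082-12381331 on the minus strand and Sspn at chr4:180627632-180627881 on the plus strand.
S100b: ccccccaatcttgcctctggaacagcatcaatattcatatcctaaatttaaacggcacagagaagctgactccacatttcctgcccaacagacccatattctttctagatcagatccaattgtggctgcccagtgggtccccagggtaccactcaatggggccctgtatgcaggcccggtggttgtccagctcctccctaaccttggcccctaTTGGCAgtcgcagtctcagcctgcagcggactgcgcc
Sspn: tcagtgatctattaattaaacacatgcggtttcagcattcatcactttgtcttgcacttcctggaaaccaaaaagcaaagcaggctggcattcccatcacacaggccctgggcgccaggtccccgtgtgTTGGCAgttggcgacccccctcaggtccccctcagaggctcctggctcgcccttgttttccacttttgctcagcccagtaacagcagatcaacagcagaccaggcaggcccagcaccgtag
The match starts 37 bases before the start of S100b and 121 bases before that of Sspn. Both genes fell by a like amount, S100b by 1.29 and Sspn by 1.31 on the log2 scale, and Ndrg2, Htra1 and Aldoc fell as much without these letters in the window.

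The 2 largest rises were in neuronal genes. Prph, peripherin, an intermediate filament of peripheral and injured neurons, read 191 to 200 in control and 502 to 622 in the depleted samples, 2.98-fold higher (1.57 ± 0.08, adjusted p = 4.87e-09). Adcyap1, the neuropeptide PACAP, read 476, 482 and 426 against 1413, 1294 and 1326 (1.54 ± 0.07, adjusted p = 1.67e-09). Isyna1, which makes inositol phosphate from glucose 6-phosphate, rose 2.54-fold on its brighter probe, and its other probe was called higher too. Anxa1, annexin A1, a calcium-dependent phospholipid-binding protein, rose from 161, 140 and 152 to 427, 315 and 384. Each of the other leading rises was close to 2-fold: Acot7, an acyl-CoA thioesterase of neurons (1.09), skeletal muscle actin Acta1 (1.04), the Ras GTPase activator Dab2ip (1.01), netrin G1 (Ntng1, 0.99), neurogranin (Nrgn, 0.99), prepronociceptin (Pnoc, 0.93) and the focal adhesion protein Tes (0.90). Rnf138l1 was not detected in any control sample and was at least 1.71-fold higher after depletion.

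Among genes that all neurons use, 9 of 18 were called higher and 0 lower (13.6% of all symbols were called higher), with a median of 0.21; with all 18 arrays 4 were called higher, and with 17 arrays 6. Uchl1, an abundant neuronal deubiquitinating enzyme, read 2373, 2223 and 2156 in control and 3504, 4029 and 4231 after depletion (0.80 ± 0.08, adjusted p = 2.81e-06). Tubb3, neuronal tubulin, rose from 2395 to 2667 to 3433 to 3843 (0.53 ± 0.07). The adhesion molecule L1cam (0.58), Thy1 (0.53), the filament protein Ina (0.50) and the vesicle protein Syp (0.39) were higher as well. Others did not pass the test: Rtn1 was at 0.06, Stmn2 at 0.04, Map2 at 0.16, and the neurofilaments Nefl and Nefm at -0.12 and -0.01. The summed signal of the 18 genes was 87217 to 89595 in control and 96212 to 101162 in the depleted samples, so it moved by less than the astrocyte sum and the other way. Scaling brings every array to the same mean, and how much of one shift is carried over from the other was not tested.

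Of 22 detected growth and injury genes of neurons, 11 were called higher (50%, against 13.6% of all symbols) and 2 lower (9.09%, against 14.0%), with a median of 0.23 (3 and 0 with all 18 arrays, 6 and 1 with 17). Besides Prph and Adcyap1 these were the transcription factor Klf6 (0.61), the collapsin response mediators Dpysl3 (0.43), Dpysl5 (0.40) and Crmp1 (0.34), Cap1 (0.43), Stmn4 (0.33), Jun (0.24), Sprr1a (0.24) and Ina, whereas Gap43 (0.19, adjusted p = 0.0520) and Basp1 (0.22) missed the threshold. Atf3 and Gal, 2 genes strongly induced in injured neurons, were not detected on any of the 6 arrays.

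Neuropeptide genes went both ways. Of 23 detected, 6 were called higher and 3 lower (4 and 2 with all 18 arrays, 6 and 3 with 17). Pnoc read 543, 454 and 482 in control and 1069, 820.4 and 941 after depletion. The neurotrophin Bdnf (0.64), Penk (0.45) and the granins Scg2 (0.65) and Chga (0.29) were higher with it. Npy, neuropeptide Y, fell 1.73-fold, from 3557, 3738 and 3657 to 2229, 2058 and 2061 (-0.79 ± 0.07, adjusted p = 7.44e-07). Vip fell from 493, 427 and 384 to 269, 235 and 300 (-0.70 ± 0.10, adjusted p = 6.70e-05). In the fit of all 18 arrays its difference was again -0.70 but was not called (adjusted p = 0.150), and with 17 arrays it was called (-0.71, adjusted p = 0.0229). Sst (-0.17) and Cck (-0.25) were not called.

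Npy and Vip also mark GABAergic interneurons. Of 20 genes of these neurons 10 were called lower and 2 higher (50% and 10%, against 14.0% and 13.6% of all symbols). The median was -0.28 (5 and 1 called with all 18 arrays, 10 and 1 with 17). Among the lower were the calcium-binding proteins Calb2 (-0.62) and Calb1 (-0.38), the serotonin receptor subunit Htr3a (-0.44), and the transcription factors Maf (-0.48), Dlx1 (-0.38) and Dlx5 (-0.30). The genes for making and loading GABA were not called, with Gad1 at 0.09 (95% interval -0.05 to 0.23), Gad2 at 0.21 (-0.01 to 0.43) and Slc32a1 at -0.03. Reln, made by Cajal-Retzius cells and some interneurons, was higher, at 4562, 4239 and 4467 against 2905, 3216 and 3165 in control (0.52 ± 0.07).

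Of 15 excitatory neuron genes 3 were called higher and 1 lower (20% and 6.67%, against 13.6% and 14.0% of all symbols). The median was 0.08 (2 and 0 called with all 18 arrays, 2 and 1 with 17). The vesicular glutamate transporters differed in direction, since Slc17a6 rose from 956, 1015 and 973 to 1515, 1378 and 1382 (0.54 ± 0.07) while Slc17a7 was detected on the 3 control arrays and on none of the depleted ones, where it was at least 1.21-fold lower. Fezf2, a factor of subcerebral projection neurons, rose by 0.36. Neurod6 (-0.08) and Bcl11b (0.13) were not called.

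**Figure D3:**
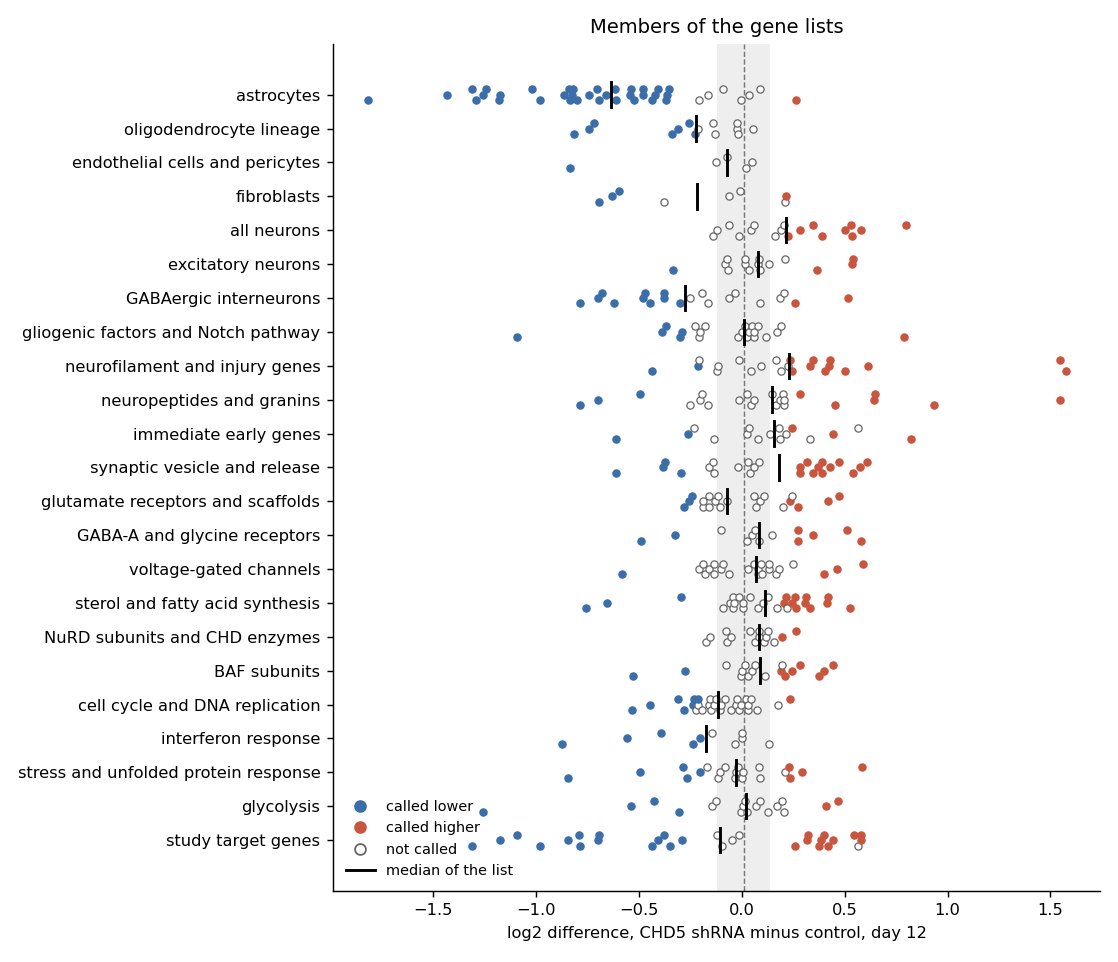
Log2 difference at day 12 of every detected member of the gene lists; filled points are called lower or higher, open points are not called, black bars are list medians, and the grey band and dashed line are the quartiles and median of all 9181 symbols. The astrocyte median is at -0.64 and the neuron median at 0.21, and in most other lists points lie on both sides of 0.

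Of 24 synaptic vesicle and release genes 12 were called higher (50%, against 13.6% of all symbols) and 4 lower (16.7%, against 14.0%), with a median of 0.18 (3 and 0 with all 18 arrays, 6 and 4 with 17). Syngr3 (0.61), the fusion ATPase Nsf (0.58), the plasma membrane SNARE Stx1a (0.54) and Rab3a (0.43) were higher. Sv2b, a vesicle glycoprotein, fell from 11141, 9405 and 10462 to 6670, 6540 and 7035 (-0.61 ± 0.08). With all 18 arrays its difference was again -0.61 but was not called (adjusted p = 0.380), and with 17 arrays it was called (-0.63, adjusted p = 0.00419). Of 21 glutamate receptor and scaffold genes 4 were called higher and 3 lower (19.0% and 14.3%, against 13.6% and 14.0% of all symbols). The median was -0.07 (2 and 0 called with 18 and with 17 arrays). The higher were the NMDA receptor subunit Grin1 (0.42), Grm7 (0.47), Grik5 (0.27) and Grik1 (0.23), and the lower Cacng2 (-0.28), Dlg1 (-0.25) and Grm5 (-0.24). Of 13 inhibitory receptor genes 5 (38.5%) were called higher and 2 (15.4%) lower (1 and 1 with all 18 arrays, 3 and 2 with 17). Gabrd was not detected in control and was at least 1.27-fold higher after depletion, Gabra5 rose by 0.51, and Gabrg1, a subunit also made by glia, fell by 0.49. Of 24 voltage-gated channel genes 3 were called higher and 1 lower (12.5% and 4.17%, against 13.6% and 14.0% of all symbols). The counts were 2 and 1 with all 18 arrays, and 3 and 1 with 17. The calcium channel subunits Cacnb1 (0.59), Cacna2d1 (0.47) and Cacnb3 (0.40) were higher and Kcnip2 (-0.58) was lower.

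Among chromatin genes the differences were small. None of the 15 detected NuRD and CHD genes was called lower, against 14.0% of all symbols. Called higher were 2 (13.3%, against 13.6% of all symbols), Gatad2a (0.26) and Chd8 (0.20). Neither was called with all 18 arrays, and Gatad2a alone with 17. Chd4 read 2375, 2908 and 2349 in control and 2391, 2236 and 2204 after depletion (-0.15 ± 0.09, adjusted p = 0.199), and Chd3 277, 291 and 268 against 320.3, 326 and 286 (0.16 ± 0.07, adjusted p = 0.131). Of 18 genes of the BAF remodelling complex 7 (38.9%) were called higher and 2 (11.1%) lower, with a median of 0.09 (0 and 0 with all 18 arrays, 4 and 1 with 17). The subunits used in postmitotic neurons, Actl6b (BAF53b, 0.38) and Dpf1 (BAF45b, 0.40), were higher, and the progenitor subunits Actl6a (BAF53a, -0.28) and Ss18 (-0.53) were lower.

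Metabolic, growth and stress genes each held members that moved in both directions, while 13.6% of all symbols were called higher and 14.0% lower. Of 28 sterol and fatty acid synthesis genes 11 (39.3%) were called higher and 3 (10.7%) lower (1 and 2 with all 18 arrays, 4 and 2 with 17). Tm7sf2 (0.53), Dhcr7 (0.42) and Mvd (0.41) of the cholesterol pathway rose. The transcription factor Srebf1 fell from 1237, 1113 and 966 to 642, 657 and 652 (-0.76 ± 0.08), and the desaturase Fads1 fell by 0.66. Of 18 glycolysis genes 4 (22.2%) were called lower and 2 (11.1%) higher (2 and 1 with all 18 arrays, 4 and 2 with 17). Besides Aldoc the lower ones were Ldhb (-0.54), Pfkp (-0.43) and Pfkm (-0.30), the higher ones were Pkm (0.41) and the lactate carrier Slc16a3, which was not detected in control and was at least 1.11-fold higher, and Gapdh was at 0.02. Of 30 cell cycle genes 7 (23.3%) were called lower and 1 (3.33%) higher, with a median of -0.12 (2 and 0 with all 18 arrays, 4 and 0 with 17). Ccne2 (-0.53), Ccnb2 (-0.31) and Cdk1 (-0.28) were lower and Mki67 was at -0.05. Of 21 stress response genes 5 (23.8%) were called lower and 4 (19.0%) higher (2 and 1 with 18 and with 17 arrays). The mTOR inhibitor Ddit4 was at -0.84 and Ppp1r15a, a phosphatase subunit, at 0.58.

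No gene induced by interferon was called higher. Of 27 listed, 14 were not detected on any array, Isg15, Ifit1, Irf7 and Mx1 among them. Of the 10 detected 5 were called lower (50%, against 14.0% of all symbols), or 1 with all 18 arrays and 4 with 17. B2m, the light chain of MHC class I, read 9056, 7524 and 8774 in control and 4456, 4446 and 4910 after depletion, 1.83-fold lower (adjusted p = 1.27e-06). Both groups had received virus, so a response shared by them would not appear in the difference.

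Several immediate early genes, which follow neuronal activity, depended on 1 sample. Fos read 159, 153 and 139 in control and 162, 125 and 535 after depletion, and Egr1 457, 380.0 and 420 against 325, 338 and 780.0. The high value came from depleted sample c in both, and in Junb (188, 173 and 408) and Egr2 (294, 314 and 548). Of the 16 detected genes 3 were called higher and 2 lower (18.8% and 12.5%, against 13.6% and 14.0% of all symbols). The counts were 1 and 1 with all 18 arrays, and 2 and 1 with 17. Dusp1, a phosphatase of MAP kinases, rose in each depleted sample, to 1322, 1259 and 1840 from 787, 811 and 866, and by 0.65 without sample c. Jun was called with sample c (0.24) and without it (0.31, adjusted p = 0.0140). Nr4a3 was called at 0.44 with sample c and not without it (0.24, adjusted p = 0.0569). Without that sample Egr1 was called lower (-0.34, adjusted p = 0.0159), against 0.08 with it, and Fos was at -0.07, against 0.56 with it, called in neither.

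The 30 genes that the study had followed up were chosen on these arrays, so their direction here is not independent evidence. Of them 14 were called lower and 11 higher (46.7% and 36.7%, against 14.0% and 13.6% of all symbols). The counts were 8 and 4 with all 18 arrays, and 13 and 9 with 17. Beside those named above, the histone methyltransferases Suv39h1 (0.54) and Kmt5c (0.32) and the microRNA-processing enzyme Dicer1 (0.32) were among those called higher, and Ampd3 (-0.79), the adenosine receptor Adora2a (-0.41) and Maoa (-0.35) lower. App differed by -0.05 and Fmr1 by -0.10, neither called.

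Most of the called day 12 differences had the same sign 3 days earlier. Of the 2590 called probes 2396 (92.5%) had the same direction at day 9 (2458 without the day 9 control array b). At day 5 it was 1953 (75.4%), and both days were read on arrays of other samples. The shares among probes not called were not computed, so how far these exceed them is not known. All 219 probes that fell at least 1.5-fold were also lower at day 9, and 190 of them at day 5; of the 94 that rose, the counts were 94 and 80. The day 9 counts of 219 and 94 were the same without array b. For the 29 probes that fell at least 2-fold at day 12, the median difference was -1.14 on that day. It was -0.32 at day 5 and -0.88 at day 9. For the 9 that rose it was 0.31, 0.73 and 1.12 at days 5, 9 and 12. Without array b the day 9 medians were -1.04 and 0.69. These probes were picked by their day 12 difference. That choice alone makes the day 12 medians large and tends to leave those of other days smaller. The change of the difference between days 5 and 12 was called for 183 of the 9415 probes (1.94%), or 20 when all 18 arrays were fitted and 268 with 17, and that between days 9 and 12 for 0 by limma, with 284 at an unadjusted p under 0.05. Without the day 9 control array b, the last count was 11.

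The course of single genes shows where the day 12 gap opened. Differences per day are from signals of all 18 arrays scaled together, and tested changes from the 12 arrays of days 5 and 12 scaled together, so a change can depart slightly from the gap between the printed differences. Htra1 went from a mean of 189 at day 5 to 2346 at day 12 in control, a 12.4-fold increase, and from 127 to 666 in the depleted samples, 5.26-fold; the difference widened from -0.58 to -1.82 (change -1.28 ± 0.11, adjusted p = 6.21e-05). Ndrg2 increased 19.2-fold in control and 8.88-fold after depletion, from day 5 means of 536 and 467. Aldoc increased 13.4-fold and 6.05-fold and S100b 12.5-fold and 6.35-fold. These glial genes thus rose with time in both groups, and less in the depleted one. Over the 40 astrocyte genes the median difference was -0.16 at day 5, with 34 below 0, and -0.80 at day 9, with all 40 below 0. The day 9 values rest in part on control array b: without it the median was -0.65 and 38 of the 40 were below 0, and Fabp7, at 580012 on that array and 21796 and 43794 on the other day 9 control arrays, went from -0.97 to 0.45. The change from day 5 to day 12 was called for 14 of them. Nfia had control means of 1650 at day 5 and 1929 at day 12, 1.17-fold, a change over time that was not tested, and its difference moved from -0.48 to -1.09 (adjusted p of the change 0.0775).

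The neuronal genes took other courses. Adcyap1 fell in control from 1727 at day 5 to 937 at day 9 and 436 at day 12, and after depletion from 2200 to 1780 and 1271 (change of the difference 1.23 ± 0.13, adjusted p = 0.000203). Prph went from 242 to 184 in control and from 319 to 547 after depletion (1.21 ± 0.15, adjusted p = 0.000827). Uchl1 had means of 2853 and 2850 at day 5 and was 0.80 apart at day 12 (adjusted p of the change 0.0233). Npy was already lower at day 5, by 0.35, and its change was not called (adjusted p = 0.121). Lpl was the exception among the large falls, at -1.32 by day 5 (adjusted p of the change 0.0887).

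**Figure D4:**
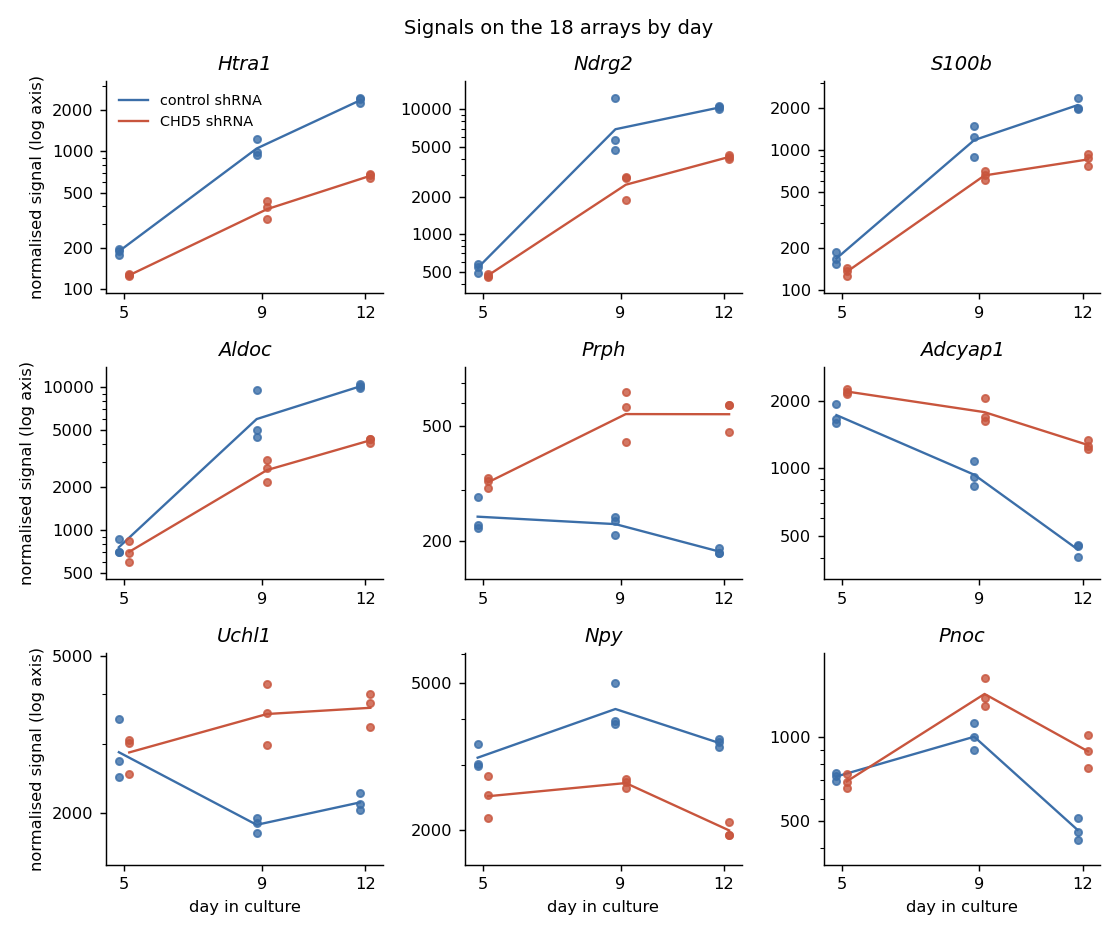
Normalised signal (log axis) of 9 genes on all 18 arrays at days 5, 9 and 12 of culture; points are arrays and lines join the group means. Htra1, Ndrg2, S100b and Aldoc climb in both groups and less after CHD5 shRNA, and Adcyap1 falls from 1727 to 436 in control and from 2200 to 1271 in the depleted samples.

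In a few genes the difference shrank towards day 12. Lox, a collagen cross-linking enzyme, was lower after CHD5 shRNA by 1.62 at day 5 and by 1.51 at day 9, and at day 12 the groups were at 173 and 133 with no call (-0.38). Its control level had dropped to 0.267 of the day 5 mean. Col1a2 moved from -0.84 at day 5 to 0.21 and the smooth muscle gene Tagln from -1.09 to -0.12. For these 3 the change from day 5 to day 12 was called, with adjusted p of 0.0102, 0.0490 and 0.0159. Gfap (-0.94 at day 5, -0.44 at day 12) and Vim (-0.80 and 0.00) moved the same way without passing the test (adjusted p 0.118 and 0.104).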

How the data were processed

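Total RNA of the 6 day 12 samples was hybridised to RatRef-12 beadchips by the authors. The deposited signal intensity of a probe is the mean over its beads, extracted with GenomeStudio 1.1.1 (submitters' processing notes), with neither normalization nor background subtraction per the file headers. The deposited detection p-value compares it with negative control beads. Probes were named through RefSeq (GRCr8), with a current symbol for 8523 of the 9415 kept; of several probes of a gene the brightest was used, and of 216 such genes with several kept probes, 55 had some called and some not and 0 had calls in opposite directions.

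Log2 signals of each array were Z-transformed, as the study did, then rescaled to a common SD (1.77, the average of the 6). limma 3.58.1 in R 4.3.3 (lmFit, eBayes) fitted the 6 arrays, with Benjamini-Hochberg adjustment over all probes. Changes between days were fitted over the arrays of both days. An exact permutation test of 3 against 3 cannot go below 0.1, and none is given. On simulated data for the day 12 comparison (9415 probes), 60% of changes of 0.5 and 96% of changes of 1 on the log2 scale were called, and 3.68% of calls were false. The simulation changed far fewer probes than were called on the real arrays, which makes the adjusted limit stricter. Its shares therefore need not hold for the real arrays. The number of arrays limits the precision. A fold against a group in which no array detected the probe is a lower bound, taken from the dimmest detected signals of that group's arrays.

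Genes named are the 15 largest falls and rises without overlap, up to 5 called and 3 bright uncalled members per list, undetected defining markers, the study's own genes, and up to 5 genes per direction whose difference changed most from day 5 to day 12; other list members are named as examples after their values were seen. The members and lists were chosen with earlier results of these data known. Counts cover all listed genes, and values of some genes are not reported here. Alternatives covered normalization (quantile, median centring, neqc with an offset of 16), detection filters, a fold limit, the study's Z-ratio criteria, array weights, the fit over all 18 arrays and over 17 without the day 9 control array b, the repeat runs of sample a, the replicate letter as a block, and leaving out each array. Figures were drawn with matplotlib 3.10.9.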

Additional observations from a re-analysis of the deposited data

Results flagged for a closer look

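Between days 5 and 12 the log2 difference between CHD5 shRNA and control changed, by a test in limma, for 42 of the 200 named genes. Over all probes the change was called for 183 of 9415 (1.94%). Up to 5 genes per direction were named for this change, and 30 for large day 12 differences, which enter it. The count of 42 thus follows in part from how the genes were picked. The values are the day 12 difference minus the day 5 difference, on arrays of different samples, with the 12 arrays of both days scaled together. Differences given for a single day are from all 18 arrays scaled together and do not subtract exactly to the change. Among astrocyte genes the difference moved down in Htra1 (-1.28), Cldn10 (-1.32), Ndrg2 (-1.14), S100b (-1.001), Aldoc (-1.18), Acsbg1 (-0.74) and Add3 (-0.86). Other leading falls behaved likewise, with Agt (-1.16), Tpp1 (-0.89), Sspn (-0.85), Sfxn5 (-0.70) and Tmem263 (-0.69). In the oligodendrocyte gene Tspan2 (-0.60), in the interneuron gene Calb2 (-0.64), in the vesicle gene Sv2b (-0.81) and in Ddit4 (-0.98), Pfkp (-0.86), Ampd3 (-0.49), S100a4 (-0.52) and Lum (-0.56) it moved down as well. Cyp7b1, an oxysterol hydroxylase named only for this change, went from 0.08 at day 5 to -1.10 at day 12 (-1.22).

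The difference moved up in the leading rises Adcyap1 (1.23), Anxa1 (1.23), Prph (1.21), Pnoc (1.02), Ntng1 (0.93), Isyna1 (0.87), Amn (0.87), Acta1 (0.86), Nrgn (0.84), Ablim3 (0.82), Acot7 (0.80), Dab2ip (0.76), Rnf138l1 (0.65) and Tes (0.63). It did so too in the neuronal genes Uchl1 (0.82), Grin1 (0.68) and Cacnb1 (0.56). Rasgrf1, an exchange factor for Ras, turned from -0.37 to 0.63 (1.03). In Lox (1.28), Col1a2 (1.08) and Tagln (0.99) the difference moved up from below 0 at day 5 and was not called at day 12. Groups of 3 samples were too small for a test of single outlying samples.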

How the results depend on the processing

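At day 12 the 2590 called probes became 2307 to 3184 under the other normalizations, detection filters, array weights, repeat runs and the single probe per symbol, and 1942 to 2643 when 1 of the 6 arrays was left out. The count moved to 313 with a fold limit of 1.5, to 1067 by the study's Z-ratio criteria (574 lower and 493 higher), and to 710 with all 18 arrays in the fit, which shares 1 spread over all days; in that fit the gene lists together held 93 calls in place of 216, and the change between days 5 and 12 was called for 20 probes in place of 183. Without the day 9 control array b these 3 counts were 1480, 154 and 268. Between days 9 and 12 no probe was called, and 11 were without the day 9 control array b. With the replicate letter as a block 2784 probes were called. Deviations of samples with the same letter correlated at 0.04, 0.17 and 0.02, and those with different letters at -0.10 to 0.07. Whether samples of 1 letter shared a plating or beadchip was not tested. Leaving out each array gave 31 to 33 astrocyte genes called lower. Of 3797 alternative values of the 200 named genes 3434 kept their direction and side of the threshold, 220 fell below it and 40 passed it. Another 102, of 32 genes, changed sign without a call on either side, and 1 turned with a call: Egr1 without D12 CHD5 shRNA sample c (-0.34, in place of 0.08, with a highest value of 0.30 when another array was left out). The 30 leading genes kept theirs in all 570. Small differences near 0.25 were seldom called on simulated data (6%), in which far fewer probes were changed than were called on the real arrays. On the real arrays some differences of about that size were called, such as Gm2a (-0.23) and S100a3 (-0.21), and others were not, such as Lamp1 (-0.22). Changes of that size can thus be missed. Dim probes such as Gabrd have only bounds in 1 group.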

Other observations

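A further 4 families were looked up after the values were seen, each with its whole membership, and are given as counts with no test of the family. Genes of fatty acid oxidation in mitochondria and peroxisomes were lower: of 37 detected, 22 were called lower (59.5%, against 14.0% of all symbols) and 0 higher, with a median of -0.32 (10 lower with all 18 arrays, 17 with 17). Cpt1a, which admits fatty acids to mitochondria, went from 576 to 275 (-1.07, adjusted p = 1.96e-07), Scp2, a peroxisomal thiolase and sterol carrier, from 2013 to 973 (-1.05), Crot, which passes shortened chains on from peroxisomes, from 1258 to 688 (-0.87) and the dehydrogenase Acadl from 2448 to 1539 (-0.67). Acadvl (-0.54), Cpt2 (-0.53), Acadm (-0.38), Hadhb (-0.32) and Echs1 (-0.32) were called lower too. Among those not called were the carnitine carrier Slc25a20 (-0.18), the trifunctional protein subunit Hadha (-0.11), the dehydrogenase Acads (0.17) and the acyl-CoA synthetases Acsl1 (-0.16), Acsl6 (-0.14) and Acsl5 (0.06). These enzymes are more abundant in astrocytes than in neurons, the astrocyte genes fell beside them, and their part in the fall was not tested.

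The S100 calcium-binding proteins were called lower in 6 (85.7%) of the 7 detected (5 with 18 and with 17 arrays). Among them were S100a1 (1873 to 996, -0.91), S100a16 (5531 to 2988, -0.89) and S100a13 (1237 to 679, -0.87), beside S100b. S100a11 was not detected in control and was at least 1.20-fold higher after depletion. Of 40 lysosomal genes 13 were called lower and 1 higher, with a median of -0.15 (6 and 1 with all 18 arrays, 9 and 1 with 17): Tpp1, the serine carboxypeptidase Scpep1 (-1.02) and Aga (-0.78) were among the lower, and the phospholipase Pla2g15 (0.39) was higher. Of 32 microtubule motors and microtubule-associated proteins 10 (31.2%) were called higher and 3 (9.38%) lower, with a median of 0.13 (2 and 1 with all 18 arrays, 7 and 2 with 17). The neuronal kinesins Kif5a (160 to 283, 0.82) and Kif5c (0.43), Map1b (2752 to 4268, 0.63) and the dynein subunits Dync1i1 (0.36) and Dync1h1 (0.33) were higher, while the ubiquitous kinesin Kif5b (-0.32) and Map6 (-0.59) were lower.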
